A study of Sus scrofa with 6 samples.

Results

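The comparison described here was between pig oocytes heat-stressed during in vitro maturation and control oocytes matured without heat. It took 4 of the 6 samples of the series, 2 control and 2 heat-stressed, following the treatment each label gives. The other samples, heated oocytes that also received nicotinamide mononucleotide (NMN), entered the estimate of the spread between samples and the mean FPKM by which genes were tested and named, and no comparison with them is made here. Per the labels, all were oocytes of Sus scrofa at the germinal vesicle (GV) stage with a time of 24 hours, and mRNA was purified from total RNA for the libraries. The study's methods differ on the stage: GV oocytes were heated for 24 hours, returned to the usual culture temperature, and collected for sequencing at metaphase II. The oocytes came from abattoir ovaries, were matured within their cumulus cells, and were pooled. The methods give the number pooled per group rather than per sample, and nothing states that samples of a group were separate collections, so P-values measure a spread that may be technical.

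A full-grown oocyte makes little new RNA. Meiotic resumption, the metaphase spindle and the first cleavages draw on mRNAs stored during growth, whose poly(A) tails are lengthened or shortened as each is needed or discarded. In most cells heat activates heat shock factors, which bind heat shock elements in DNA and switch on chaperone genes. Heat during maturation is known to lower the proportion of oocytes that reach metaphase II and to disturb spindle, actin and mitochondria.

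Expression was given as FPKM, fragments mapped to a gene divided by the length of its transcript and by the size of the library. The table listed 29861 genes. The 4713 whose FPKM averaged 1 or more across the 6 samples were tested on log2(FPKM + 1), a scale that understates changes of low genes. A gene near 1 FPKM can pass this filter only through the group where it is high, so its call rests partly on the filter. Oocyte markers were present, with 13 of 14 among the tested genes and a summed FPKM of 3494 and 3729 in control and 3425 and 3430 in heat-stressed samples. Of these 13, 4 were called lower (30.8%) and none higher, beside 10.1% lower and 12.7% higher among all tested genes. In the trend-removed fit described below 3 were lower and 1 higher. Of 26 cumulus and granulosa markers 9 were listed at 0 in all 4 samples, and the sum was 4.44 and 3.64 in control and 4.99 and 5.50 in heat-stressed samples. GREM1, a BMP antagonist of cumulus cells, was the only one tested, at 2.48 and 1.73 against 3.27 and 2.87 FPKM. It was called higher (0.40 ± 0.15) in the fit of all samples but not in the trend-removed fit (0.27). Nor was it called without control replicate 2 (0.22), heat stress replicate 1 (0.33) or heat stress replicate 2 (0.47). The part of these markers in the results was not tested. Blood and endothelial markers summed to 0.612 to 0.766 FPKM, with 4 of 10 at 0 in all 4 samples. One library stood apart: in heat stress replicate 1 the short pseudogene LOC100513953 (132 bases) was listed at 40366 FPKM, 13.9% of the library's sum, and at 0 in the other 3 samples compared. In pooled oocytes, fewer cells of a type and less RNA per cell cannot be told apart.

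Both heated samples stood apart from both controls at many genes, each by a modest amount. As wholes the samples were close. Spearman correlations over tested genes were 0.922 between controls, 0.904 between heated samples and 0.862 to 0.896 across these 2 groups. A gene is called here when its unadjusted limma P was under 0.05 and both samples of one group lay above both of the other. Of the 4713 genes 1074 were called (22.8%), of which 598 were higher (12.7%) and 476 lower (10.1%) with heat stress. No gene passed an adjusted P of 0.05 in limma, so the calls are ordered by strength of separation and none is a statistically significant change after correction; the same 1074 genes were those under 0.05 before adjustment. The smallest adjusted P was 0.0551, for a gene known by a LOC number, and the smallest among genes with a name was 0.111. Without genes known only by LOC numbers, 507 were higher and 378 lower. Genes called higher had a median log2 fold change of 0.45, genes called lower one of -0.59, and all tested genes one of 0.05. A log2 fold change above 1 in size was seen for 18 called genes that were higher and 56 that were lower. Leaving out control replicate 2 lowered the count of calls to 648, with 326 higher, and 389 were higher without heat stress replicate 1. The split depended on scaling. When samples were scaled to the same sum over nuclear genes, the median over all tested genes moved from 0.05 to -0.22 and 21 were called higher and 480 lower, and when LOC100513953 was kept out of that sum the median was 0.02 with 333 higher and 488 lower. With genes down to a mean of 0.1 FPKM included, 818 were higher and 1047 lower.

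The called genes shared features of their mRNAs. GC content and length were read from the RefSeq annotation of the Sscrofa11.1 build for 4157 of the tested genes. The median mRNA of genes called higher was 4336 bases long with 41.2% GC and a 3' untranslated region (UTR) of 2132 bases. For genes called lower the medians were 1964 bases, 57.1% GC and 521 bases, and over all tested genes 2926 bases, 48.2% GC and 1010 bases. Among the 832 mRNAs of lowest GC content, 32.2% were called higher and 1.32% lower, whereas among the 830 of highest GC content 1.57% were called higher and 23.7% lower. Length showed the same order. Of the 832 longest mRNAs 22.2% were called higher and 2.76% lower, and of the 833 shortest 3.96% and 18.4%.

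Because of this slope, the fit was repeated once with a smooth trend on mRNA length and GC content removed from each sample. This alternative was chosen after seeing the data. Leave-outs and the other settings were not combined with it. This trend-removed fit called 318 genes higher (7.65%) and 379 lower (9.12%) of the 4157, and 448 genes kept their call on the same side. Calls were then spread over the GC range, at 6.85% higher and 7.21% lower among mRNAs of lowest GC content and 9.40% and 10.8% among those of highest. The origin of the slope was not tested. Group counts below are to be read beside the 12.7% higher and 10.1% lower of all tested genes. For the gene groups below, counts of the trend-removed fit stand beside those from the deposited values, and counts with a library left out are given where they moved by more than 1.5 times.

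**Figure D1:**
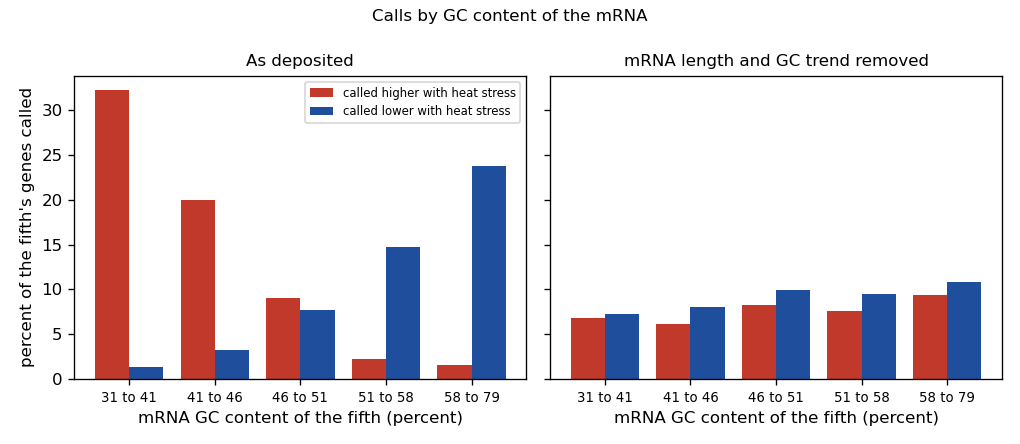
Percent of genes called higher (red) or lower (blue) with heat stress in 5 groups of nearly equal size of genes ordered by the GC content of the mRNA, in the fit of the deposited FPKM (left) and after removal of the length and GC trend (right). From lowest to highest GC, the left red bars run from 32.2% to 1.57% and the blue bars from 1.32% to 23.7%, and the right red bars run from 6.85% to 9.40% and the blue bars from 7.21% to 10.8%.

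Few chaperone mRNAs were called higher after heat. Of the 37 heat shock factors and chaperones tested, 6 were called lower (16.2%), 1 was called higher and 30 were not called, with a median log2 fold change of -0.05, below 0 under each scaling tried. The trend-removed fit called 7 lower and 1 higher. Those called higher numbered 2 without control replicate 1 or heat stress replicate 2. The heat shock factors HSF1 and HSF2 were not among the genes tested.

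DNAJB1, the main stress-inducible HSP40 co-chaperone of HSP70 (chromosome 2, 64761672 to 64764482), was at 27.1 and 25.4 FPKM in control and 13.4 and 14.7 FPKM in heat-stressed oocytes. Both heated samples were thus near 0.534 of the control mean, which is -0.86 ± 0.11 as a log2 fold change with its SE (limma, adjusted P = 0.111). It was called in the trend-removed fit (-0.61) and with any 1 of the 4 samples left out. HSPA1L, an HSP70 of the germ line, was at 38.0 and 38.1 FPKM in control and 24.1 and 28.9 FPKM in heated oocytes (-0.51 ± 0.12). Its neighbour HSP70.2, the most abundant HSP70 mRNA here and outside the chaperone group, was at 582 and 574 FPKM in control and 368 and 442 FPKM after heat (-0.52 ± 0.13). The 2 are listed at 1 locus of 3 genes and belong to 1 family of related sequences. Reads may have been divided among the genes of that locus. HSP70.2 was not called in the trend-removed fit (-0.26). HSP90AA1, the inducible cytosolic HSP90, was at 60.0 and 57.5 against 42.6 and 41.3 FPKM. Its groups did not overlap, but its call (-0.48 ± 0.17) was lost whichever of the 4 samples was left out, with fold changes of -0.51 to -0.45.

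HSPE1, the mitochondrial HSP10 co-chaperonin, was at 44.8 and 48.0 FPKM in control and 31.7 and 30.3 FPKM in heat-stressed oocytes (-0.57 ± 0.14, adjusted P = 0.137). Its partner chaperonin HSPD1 (HSP60) was at 2.09 and 1.92 FPKM in control and 2.31 and 3.09 FPKM after heat, which was not called (0.29 ± 0.18, adjusted P = 0.368). The genes of the pair lie head to head on chromosome 15, with 521 bases between their annotated starts, and the heated samples lay below control for one and above it for the other. DNAJB4, another HSP40, was the only chaperone of the group called higher, at 3.66 and 3.82 against 5.62 and 5.28 FPKM, and was not called once the trend was removed (0.06). HSPA6, an HSP70 that is barely made without stress, was looked at after its values were seen. It was at 5.13 and 4.57 FPKM in control and 7.73 and 6.13 FPKM in heated oocytes (0.43 ± 0.17, adjusted P = 0.219). HSPA6 was called in the trend-removed fit (0.54). Its call was lost without control replicate 1 (0.50), without control replicate 2 (0.36) and without heat stress replicate 1 (0.29).

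**Figure D2:**
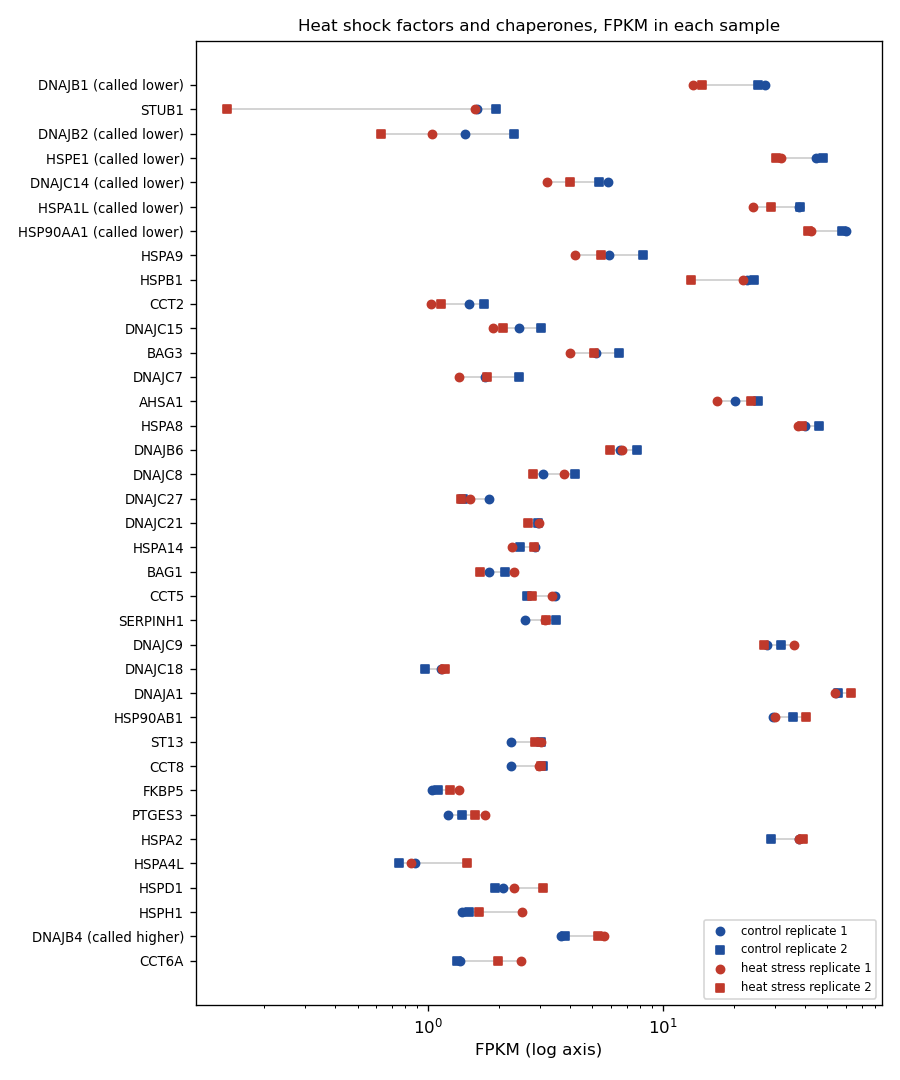
FPKM (log axis) of the 37 tested heat shock factors and chaperones in the 2 control (blue) and 2 heat-stressed (red) samples, ordered by log2 fold change, with circles for replicate 1, squares for replicate 2 and the called genes marked. At DNAJB1 the red points lie at 13.4 and 14.7 and the blue points at 25.4 and 27.1, and for most of the other genes the colours overlap or lie close together.

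Promoters of chaperones that were not called are shown because heat usually acts through heat shock elements in them. An element of 3 units was searched as GAANNTTCNNGAA or TTCNNGAANNTTC, which are each other's reverse complement so that both strands are covered, from 250 bases before to 50 bases after the annotated start. It was found in 14 of 4157 promoters (0.337%) and in 5 of the 37 chaperone promoters (13.5%), namely those of HSPA8, HSPH1, HSP90AB1, HSPD1 and SERPINH1. None of these 5 genes was called. Of all genes called higher 1 of 540 had a match, CNOT7, and of those called lower 0 of 421. The HSPD1 element lies within the 521 bases between the starts of HSPD1 and HSPE1. HSPE1, called lower, counts as without a match because that element falls outside the 250 bases searched before its start. A match describes letters and does not show a bound site. The promoters of 3 uncalled chaperones, from the RefSeq Sscrofa11.1 build and written 5' to 3' along the gene with the element in capitals, are given here. HSPA8 (chr9:49986711-49987010), HSPH1 (chr11:7759386-7759685) and HSPD1 (chr15:101373449-101373748) all lie on the minus strand.
HSPA8: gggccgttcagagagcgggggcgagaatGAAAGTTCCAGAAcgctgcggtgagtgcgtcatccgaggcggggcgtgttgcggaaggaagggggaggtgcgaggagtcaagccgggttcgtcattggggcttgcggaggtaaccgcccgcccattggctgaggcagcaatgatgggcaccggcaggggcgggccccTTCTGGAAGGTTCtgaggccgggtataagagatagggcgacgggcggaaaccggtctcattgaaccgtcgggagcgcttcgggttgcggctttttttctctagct
HSPH1: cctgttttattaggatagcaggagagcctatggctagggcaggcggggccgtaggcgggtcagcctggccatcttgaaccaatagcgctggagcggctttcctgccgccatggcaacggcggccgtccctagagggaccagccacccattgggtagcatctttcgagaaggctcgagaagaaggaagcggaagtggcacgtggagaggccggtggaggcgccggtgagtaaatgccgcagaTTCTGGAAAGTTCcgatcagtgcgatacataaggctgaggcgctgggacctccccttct
HSPD1: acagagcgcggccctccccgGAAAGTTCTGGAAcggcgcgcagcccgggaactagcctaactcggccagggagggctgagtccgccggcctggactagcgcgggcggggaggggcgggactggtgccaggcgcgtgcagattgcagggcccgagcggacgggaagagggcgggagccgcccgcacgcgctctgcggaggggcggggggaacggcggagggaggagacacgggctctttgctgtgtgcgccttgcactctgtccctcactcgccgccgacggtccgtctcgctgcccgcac

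HSPA8, the constitutive HSP70 whose promoter holds 2 matches, was at 40.1 and 46.3 FPKM in control and 37.7 and 39.0 FPKM in heat-stressed oocytes (-0.16 ± 0.13, adjusted P = 0.483). HSPH1, the HSP110 exchange factor, was at 1.40 and 1.49 against 2.50 and 1.65 FPKM (0.32 ± 0.16, adjusted P = 0.304). HSP90AB1, the constitutive HSP90, overlapped between the groups at 29.4 and 35.6 against 29.8 and 40.6 FPKM. HSPH1 stood above control in both heated samples, by more in replicate 1, and HSPA8 stood below it in both by a smaller margin.

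Genes of the endoplasmic reticulum (ER) and integrated stress response were mixed. Of 24 tested, 3 were called lower (12.5%) and 2 higher (8.33%), and the trend-removed fit gave the same counts. Higher and lower calls numbered 4 and 4 without control replicate 1, 0 and 2 without control replicate 2, 1 and 5 without heat stress replicate 1, and 0 and 4 without heat stress replicate 2. ATF4, the transcription factor through which the integrated stress response acts, was at 21.8 and 21.1 FPKM in control and 12.5 and 15.5 FPKM after heat (-0.59 ± 0.14, adjusted P = 0.131). HSPA5, the ER chaperone BiP, was at 41.6 and 48.4 against 29.0 and 33.7 FPKM (-0.51 ± 0.13, adjusted P = 0.139). CRELD2, an ER stress protein, was at 3.61 and 3.86 against 2.47 and 1.41 FPKM (-0.71 ± 0.19). All 3 were called lower in both fits. HSPA5 was not called without heat stress replicate 1 (-0.40), nor CRELD2 without control replicate 2 (-0.68). The sensor kinase gene ERN1 (IRE1) was at 2.04 and 1.51 against 2.48 and 2.52 FPKM and was called higher (0.34 ± 0.13, adjusted P = 0.219), a call lost without control replicate 2 (0.20), heat stress replicate 1 (0.35) or heat stress replicate 2 (0.33).

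Of 22 proteasome subunits 4 were called lower and none higher (3 and none in the trend-removed fit), with a median of -0.15. Only 2 were lower without control replicate 2 (median -0.03), 1 was lower and 1 higher without heat stress replicate 1, and 3 were lower and 1 higher without control replicate 1. PSMB5, the subunit with chymotrypsin-like activity, was at 2.78 and 4.02 FPKM in control and 1.06 and 1.66 FPKM in heated oocytes (-0.90 ± 0.20, adjusted P = 0.127). SEM1, a small subunit of the proteasome lid that was outside the group but among the most abundant called mRNAs, was at 480 and 778 against 366 and 416 FPKM (-0.65 ± 0.24). The call of SEM1 was lost without control replicate 2 (-0.30), heat stress replicate 1 (-0.55) or heat stress replicate 2 (-0.74). Among 50 genes of ubiquitin conjugation and deubiquitination 10 were called higher and 4 lower (6 and 1 in the trend-removed fit), and those higher numbered 6 without heat stress replicate 1 and 5 without heat stress replicate 2. UBA3, the catalytic subunit of the NEDD8-activating enzyme, was at 2.44 and 2.75 against 4.40 and 3.80 FPKM (0.50 ± 0.12). The small modifier SUMO2 was at 22.8 and 26 against 36.8 and 32.6 FPKM (0.49 ± 0.14). Both were called higher in both fits, though SUMO2 was not called without control replicate 1 (0.40) or heat stress replicate 1 (0.41).

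Of 17 genes of the V-ATPase and lysosome, 3 were called lower and 1 higher in both fits. None was higher without control replicate 1, heat stress replicate 1 or heat stress replicate 2, where 4, 5 and 2 were lower. ATP6V0B, a proteolipid subunit of the proton pump, was at 3.54 and 4.73 FPKM in control and 0.750 and 1.17 FPKM in heat-stressed oocytes, a control mean 4.30-fold the heated mean. ATP6V0C, another proteolipid subunit, was at 4.26 and 4.56 against 2.18 and 2.40 FPKM (-0.72 ± 0.12, adjusted P = 0.111). The accessory subunit ATP6AP2 went the other way, at 7.97 and 9.56 against 12.4 and 11.6 FPKM (0.42 ± 0.14), and lost its call without control replicate 1 (0.30), heat stress replicate 1 (0.37) or heat stress replicate 2 (0.46).

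The largest named differences were in genes called lower, of low to moderate expression. TCL1B, an oocyte gene of the TCL1 family of AKT coactivators (chromosome 7, 116912974 to 116917940), was at 19.1 and 25.8 FPKM in control and 7.43 and 6.39 FPKM in heat-stressed oocytes. The heated samples lay well apart from control, with a control mean 3.25-fold higher (-1.56 ± 0.17, adjusted P = 0.111). CDKN1C, the imprinted cyclin-dependent kinase inhibitor p57 (chromosome 2, 2019391 to 2022092), was at 3.35 and 3.90 against 0.860 and 0.686 FPKM (-1.38 ± 0.14, adjusted P = 0.111). CDT1, which licenses DNA replication origins, was at 2.04 and 2.46 against 0.710 and 0.138 FPKM (-1.22 ± 0.22). For both genes each heated sample was under 1 FPKM and each control sample above 2 FPKM.

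RHOC, a small GTPase that directs actin assembly, was at 5.52 and 5.80 FPKM in control and 1.51 and 2.30 FPKM after heat (-1.21 ± 0.16). ACTL7B, an actin-like protein of germ cells, was at 9.39 and 9.85 against 3.51 and 3.86 FPKM (-1.18 ± 0.15). IER2, an immediate early gene, was at 37.5 and 37.3 against 15.4 and 18.3 FPKM (-1.11 ± 0.21). In each of the 3 the spread within a group was small beside the gap between them. ATP6V0B (-1.39, above), TLCD1, TMEM119 and C2H19orf43 also belonged to the 15 named genes called lower with the largest differences, the last 3 at log2 fold changes of -1.43, -1.11 and -1.1. All the genes named in these 2 sets kept their call in the trend-removed fit and with any 1 of the 4 samples left out. The other genes of the 15 had fold changes of like size but lost their call in at least 1 of these. POP7 lost it without control replicate 2 (-0.99), and SNX22 in the trend-removed fit (-0.79). EMC6 lost it without control replicate 2 (-0.90) or heat stress replicate 2 (-0.63) and in the trend-removed fit (-0.78). ATPIF1 lost it without control replicate 2 (-0.54), heat stress replicate 1 (-0.97) or heat stress replicate 2 (-1.27). RPL4 lost it without control replicate 1 (-1.1) or control replicate 2 (-1.26).

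Outside the rule for naming genes, and chosen after their values were seen, 4 regulators stood out. RBM3, an RNA-binding protein known for its induction by cold, was at 4.53 and 4.58 FPKM in control and 1.23 and 2.51 FPKM in heat-stressed oocytes (-0.99 ± 0.29, adjusted P = 0.155). Its call was lost without control replicate 1 (-1.0), control replicate 2 (-0.98) or heat stress replicate 1 (-0.66). CIRBP, looked at beside RBM3, was not called (-0.47 ± 0.25, limma, adjusted P = 0.311). It was at 1.57 and 3.27 against 1.27 and 1.51 FPKM, in a listed locus of 2 genes. NR0B1 (DAX1), a nuclear receptor corepressor, was at 37.8 and 35.6 against 20.0 and 15.1 FPKM (-1.03 ± 0.18). KLF2, a Krüppel-like transcription factor, was at 44.2 and 40.2 against 24.1 and 18.8 FPKM (-0.95 ± 0.16). Its relative KLF4 was higher, at 5.85 and 4.93 against 9.09 and 10.2 FPKM (0.74 ± 0.13, adjusted P = 0.111). NR0B1, KLF2 and KLF4 kept their calls in both fits and in all 4 leave-outs.

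The named genes called higher differed by less than the largest of those called lower. LIN7C, a scaffold protein of cell polarity (chromosome 2, 32844928 to 32855166), was at 12.7 and 8.37 FPKM in control and 24.8 and 24.5 FPKM in heat-stressed oocytes, 2.34-fold the control mean (1.18 ± 0.19, adjusted P = 0.111). SOCS4, a suppressor of cytokine signalling, was at 1.68 and 1.70 against 4.27 and 4.32 FPKM (0.97 ± 0.11, adjusted P = 0.111). PANK3, a pantothenate kinase at the start of coenzyme A synthesis, was at 10.7 and 8.02 against 18.2 and 18.1 FPKM (0.90 ± 0.15). The heated samples lay close together for all 3 genes.

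SLC30A1, a zinc exporter of the plasma membrane, was at 7.96 and 5.25 FPKM in control and 16.9 and 11 FPKM after heat (0.97 ± 0.26), a call lost without control replicate 2 (0.71). CXH4orf3 was at 48.0 and 46.5 against 100.1 and 79.9 FPKM (0.91 ± 0.14). YOD1, a deubiquitinase of ER quality control, was at 2.40 and 1.89 against 3.79 and 5.47 FPKM (0.83 ± 0.18). Apart from SLC30A1 in 1 leave-out, these genes were called in both fits and in every leave-out of the 4 samples. ADH4, TMEM220, NAP1L3, KLHL11 and NAA30 were higher by 0.82 to 1.01 (log2) and kept their calls likewise. The other genes of the 15 did not. ORMDL2 (0.95) lost its call without control replicate 1 (1.12), control replicate 2 (0.78) or heat stress replicate 1 (0.47), and SOX12 (0.93) without control replicate 1 (0.80) or heat stress replicate 2 (0.65). ZNF770 (0.81) lost it without control replicate 2 (0.51) or heat stress replicate 1 (0.51) and in the trend-removed fit (0.44), and the mitochondrial gene ND5 is described below. SOX12 was at 0.315 and 0.572 FPKM in control and 1.26 and 2.33 FPKM after heat. It averaged 1.04 FPKM over the 6 samples and passed the filter only through heated samples. SOCS4, PANK3, CXH4orf3, YOD1, ORMDL2, ADH4, TMEM220, NAP1L3, KLHL11 and NAA30 share their listed locus with other genes, TMEM220 with 108 in all, so reads may have been divided among neighbours.

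**Figure D3:**
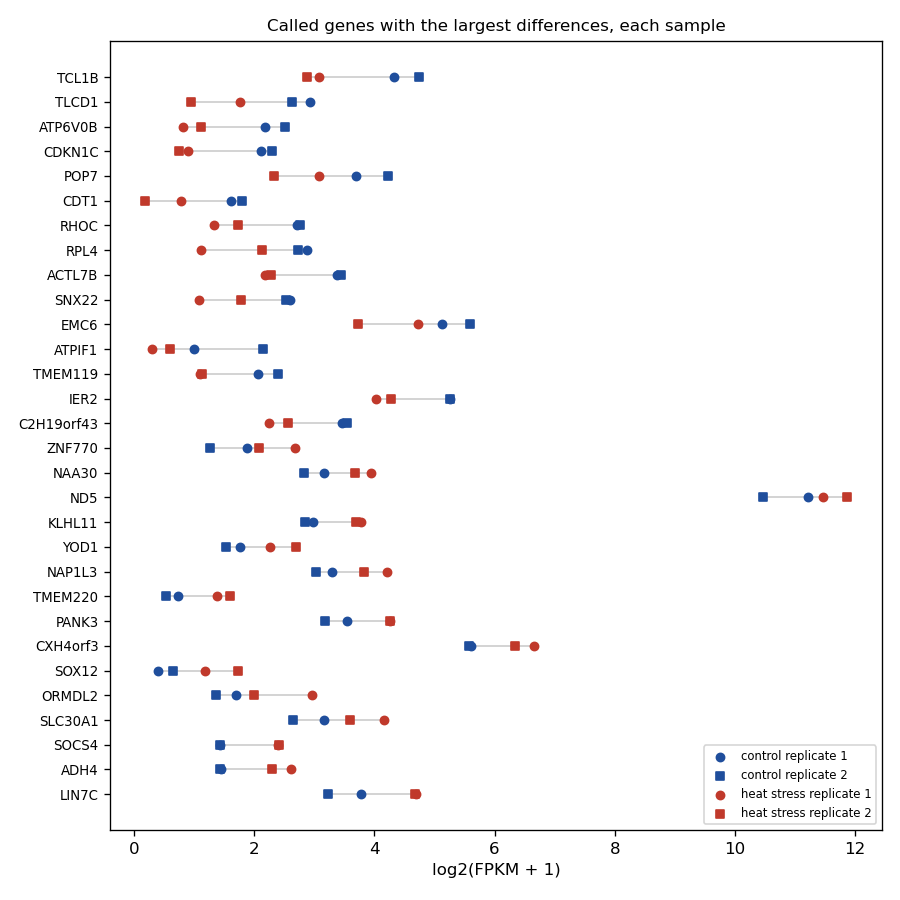
log2(FPKM + 1) of the 15 named genes called lower (top) and the 15 called higher (bottom) with the largest differences, in 2 control (blue) and 2 heat-stressed (red) samples, with circles for replicate 1 and squares for replicate 2. By the calling rule red and blue points do not overlap, and at TCL1B, CDKN1C and LIN7C the gap between the colours exceeds the distance within each.

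On the deposited scale transcripts of the mitochondrial genome lay higher, while mRNAs of several nuclear respiratory subunits lay lower. Of the 13 mitochondrially encoded respiratory chain genes 9 were called higher and none lower, 6 and none in the trend-removed fit. The median log2 fold change was 0.57, which became 0.20 when samples were scaled to the same nuclear sum and -0.15 under quantile normalization, and neither of these scalings called any of the 13. With LOC100513953 kept out of the nuclear sum, 10 were called higher and the median was 0.53. All 13 had a positive fold change on the deposited scale. Their levels were among the highest FPKM values of the table. ATP6, a subunit of ATP synthase, was at 22684 and 23490 FPKM in control and 36572 and 31491 FPKM in heat-stressed oocytes (0.56 ± 0.14, adjusted P = 0.137). COX2, a core subunit of cytochrome c oxidase, was at 15903 and 11029 against 23705 and 20982 FPKM (0.75 ± 0.21). ND4, a complex I subunit, was at 2850 and 2206 against 4227 and 4206 FPKM (0.75 ± 0.16), and CYTB of complex III was at 6678 and 5868 against 9105 and 8532 FPKM (0.49 ± 0.14). By the calling rule each heated sample of these 4 genes exceeded each control sample.

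COX1 lost its call without control replicate 1 (0.40), control replicate 2 (0.41) or heat stress replicate 1 (0.23). ND2 lost it without control replicate 2 (0.30), heat stress replicate 1 (0.57) or heat stress replicate 2 (0.52), and ND5 without control replicate 2 (0.45) or heat stress replicate 2 (0.62). COX1 (0.31), ND2 (0.38), ND5 (0.64) and ND6 (0.26) were not called in the trend-removed fit. ATP8 varied more within than between the groups, at 14941 and 4007 FPKM in control and 19486 and 9304 FPKM after heat (0.80 ± 0.67, adjusted P = 0.499). ATP6, ATP8 and COX3 share 1 listed locus, as do ND4 with ND4L and ND5 with ND6. As a share of all FPKM the 13 genes took 66.4% and 61.7% in control and 62.4% and 71.6% in heat-stressed oocytes, which overlapped, with a difference of 2.96 percentage points (two-sided exact permutation P = 0.667). Without LOC100513953, which takes up 13.9% of heat stress replicate 1, the shares after heat were 72.5% and 71.6% and lay above both controls. The difference was then 8.0 percentage points (two-sided exact permutation P = 0.33), the smallest P that 2 against 2 samples can give.

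**Figure D4:**
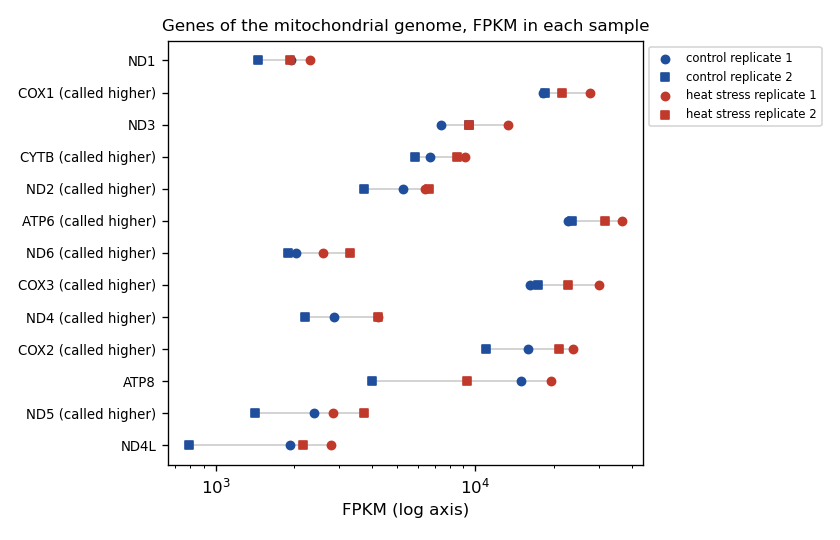
FPKM (log axis) of the 13 protein genes of the mitochondrial genome in 2 control (blue) and 2 heat-stressed (red) samples, ordered by log2 fold change, with circles for replicate 1, squares for replicate 2 and called genes marked. At ATP6 the red points (31491 and 36572) lie to the right of the blue points (22684 and 23490), and ATP8 shows the widest spread within the control group.

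Of 18 nuclear-encoded subunits of the respiratory chain and ATP synthase 7 were called lower and none higher, with a median of -0.31 that stayed below 0 under each scaling. The trend-removed fit called 4 lower, and 4 were called lower without control replicate 2 or without heat stress replicate 1. NDUFA6, a complex I subunit, was at 3.40 and 5.11 FPKM in control and 1.71 and 2.26 FPKM in heated oocytes (-0.80 ± 0.20, adjusted P = 0.137). COX17, the copper chaperone of cytochrome c oxidase, was at 2.44 and 2.55 against 1.13 and 1.39 FPKM (-0.63 ± 0.15), and was not called once the trend was removed (-0.37). COX7C, a cytochrome c oxidase subunit, was at 10.8 in both control samples and at 7.82 and 8.51 FPKM after heat (-0.36 ± 0.12), and was called with heat stress replicate 2 left out but not with any other 1 of the 4 (-0.36 to -0.31). By the calling rule both heated samples were below both controls for each of these.

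Mitochondrial ribosomal proteins had a similar direction, with 5 of 33 lower and 1 higher in both fits and a median of -0.26, negative under each scaling. Without heat stress replicate 1, 8 were lower, and without heat stress replicate 2, 4 were lower and 2 higher. MRPL54 was at 13.3 and 13.4 FPKM in control and 6.12 and 6.70 FPKM after heat (-0.96 ± 0.17, adjusted P = 0.111). MRPS16 was the exception, at 55.3 and 46.6 against 84.1 and 75.4 FPKM (0.64 ± 0.14). Both kept their calls in every leave-out of the 4 samples. In mitochondrial dynamics, import and genome maintenance 3 of 22 were called higher and 2 lower, and 3 lower with none higher in the trend-removed fit, while 1 was higher without control replicate 1. TIMM13, a chaperone of the intermembrane space that carries imported proteins, was at 13.9 and 21.2 against 7.37 and 8.42 FPKM (-1.03 ± 0.21). The fusion GTPase MFN1 was at 1.63 and 1.97 against 2.84 and 2.88 FPKM (0.46 ± 0.12), which the trend-removed fit did not call (0.19).

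Cytosolic ribosomal protein mRNAs had the lowest median of the 30 gene groups with more than 1 member tested, -0.45, on the deposited values, and it was negative under each scaling. Of 36 tested 10 were called lower and 1 higher, and 7 and 3 in the trend-removed fit, whose median was -0.24, above that of the nuclear respiratory subunits (-0.27). Calls lower and higher numbered 6 and 0 without control replicate 2, 10 and 0 without heat stress replicate 1, and 13 and 3 without heat stress replicate 2. RPL27 was at 2.56 and 3.01 FPKM in control and 0.908 and 0.704 FPKM in heat-stressed oocytes (-1.07 ± 0.19, adjusted P = 0.111). RPLP1, an acidic protein of the ribosomal stalk, was at 14.8 and 19.7 against 8.19 and 7.53 FPKM (-1.03 ± 0.23). RPL15 was higher, at 39.8 and 33.5 against 51.6 and 49.0 FPKM (0.45 ± 0.13), and lost its call without control replicate 2 (0.33) or heat stress replicate 1 (0.41). Ribosomal protein genes have many processed copies, so how reads were divided among them is uncertain.

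Translation factors were divided, with 3 of 24 lower and 2 higher (3 and 1 in the trend-removed fit, and also without control replicate 1 or heat stress replicate 1). EEF1A1, the elongation factor that delivers aminoacyl-tRNA, was at 106.6 and 106.2 FPKM in control and 74.9 and 70.1 FPKM after heat (-0.55 ± 0.11, adjusted P = 0.118). The initiation factor EIF1AX was at 4.15 and 3.29 against 6.84 and 6.32 FPKM (0.69 ± 0.13). Samples of a group were close together for both factors, and both were called in each fit and leave-out.

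Genes that define the oocyte and its surface were more often lower than higher. Of 27 growth factors, zona pellucida and egg surface genes 8 were called lower (29.6%) and 1 higher, 7 and 2 in the trend-removed fit, and the median was -0.21, negative under each scaling. GDF9, the secreted growth factor by which the oocyte directs cumulus cells, was at 732 and 777 FPKM in control and 477 and 532 FPKM in heat-stressed oocytes (-0.58 ± 0.15, adjusted P = 0.137). Its paralogue BMP15 was not called and lay the other way, at 1606 and 1646 against 1861 and 1940 FPKM (0.22 ± 0.11, adjusted P = 0.283). ZP3, a zona pellucida glycoprotein, was at 24.7 and 26.3 against 12.3 and 14.2 FPKM (-0.89 ± 0.18). ZP2, another zona protein, overlapped at 10.6 and 11.3 against 10.6 and 10.2 FPKM. ZP4, a further zona protein, was at 22.1 and 19.5 against 10.5 and 15.7 FPKM (-0.65 ± 0.21). It was called lower in both fits, but not without control replicate 1 (-0.56) or heat stress replicate 1 (-0.39). ZP3 and ZP4 thus separated the groups and ZP2 did not.

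ASTL (ovastacin), the cortical granule protease that cleaves ZP2 after fertilization, was at 30.4 and 39.6 FPKM in control and 17.0 and 21.7 FPKM after heat (-0.82 ± 0.21, adjusted P = 0.137). DPPA5, a pluripotency-associated RNA-binding protein, was at 158 and 190 against 105 and 95.3 FPKM (-0.79 ± 0.15). TLE6, of the subcortical maternal complex, was at 2.85 and 3.39 against 1.81 and 1.66 FPKM (-0.59 ± 0.13). WEE2, the oocyte kinase that keeps CDK1 inactive, was the 1 member called higher, at 157 and 134 against 201 and 198 FPKM (0.45 ± 0.12, adjusted P = 0.14). GDF9, ZP3, ASTL, DPPA5, TLE6 and WEE2 were called in both fits and with any 1 of the 4 samples left out.

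Regulators of stored maternal mRNA were called in both directions. Of 48 genes of mRNA storage, polyadenylation and decay 7 were called higher (14.6%) and 3 lower (6.25%), near the 12.7% and 10.1% of all tested genes, and 6 and 1 in the trend-removed fit. Those higher and lower numbered 6 and 5 without control replicate 1, 5 and 1 without control replicate 2, and 4 and 0 without heat stress replicate 1. The median was 0.17, and -0.14 when samples were scaled to the nuclear sum, or 0.14 with LOC100513953 kept out of that sum. FMR1, an RNA-binding repressor of translation, was at 3.27 and 3.18 FPKM in control and 5.45 and 5.11 FPKM in heat-stressed oocytes (0.57 ± 0.11, adjusted P = 0.118). YTHDF3, a reader of m6A in mRNA, was at 3.89 and 2.92 against 5.18 and 5.85 FPKM (0.57 ± 0.15), and was not called once the trend was removed (0.30). CNOT7, a deadenylase of the CCR4-NOT complex, was at 21.0 and 15.5 against 27.0 and 25.7 FPKM (0.52 ± 0.16), in a listed locus of 29 genes, and lost its call without control replicate 2 (0.31), heat stress replicate 1 (0.49) or heat stress replicate 2 (0.55). The scaffold subunit CNOT11 was lower, at 7.61 and 7.38 against 4.92 and 5.54 FPKM (-0.45 ± 0.12), and lost its call without heat stress replicate 1 (-0.38). CNOT6 (0.43) and CNOT6L, also deadenylases of that complex, were called higher, but not once the trend was removed. CNOT6 lost its call without control replicate 2 (0.32) or heat stress replicate 2 (0.38). CNOT6L lost it without control replicate 1 (0.32), control replicate 2 (0.34) or heat stress replicate 1 (0.26). Among called genes of CCR4-NOT, the deadenylases thus lay higher and CNOT11 lower.

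The cytoplasmic polyadenylation element TTTTAT, through which CPEB proteins lengthen tails during maturation, was looked for in the last 100 bases of the annotated 3' UTR on the mRNA strand. It was present in 121 of 523 genes called higher (23.1%), 53 of 368 called lower (14.4%) and 770 of all 3864 tested genes with a 3' UTR of at least 100 bases (19.9%). Genes with a shorter 3' UTR were left out, which took those called higher from 540 to 523 and those called lower from 421 to 368. The polyadenylation signal AATAAA, in the same window, was present in 77.3%, 56.3% and 69.0%. Both motifs are rich in A and T, as are the mRNAs called higher, and these shares were not adjusted for that.

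Meiotic kinases included some of the most clearly separated genes although the group as a whole was centred near 0 (median 0.05, -0.26 with scaling to the nuclear sum, 0.01 with LOC100513953 kept out of it). Of 34 tested 4 were called lower and 1 higher, 5 and 1 in the trend-removed fit, 6 and 5 without control replicate 1, 5 and 0 without control replicate 2, and 7 and 0 without heat stress replicate 1. AURKA, the spindle pole kinase, was at 31.6 and 39.1 FPKM in control and 18.7 and 17.0 FPKM in heat-stressed oocytes (-0.94 ± 0.15, adjusted P = 0.111). PLK1, the polo-like kinase of spindle and chromosome segregation, was at 7.15 and 6.68 against 3.38 and 3.30 FPKM (-0.87 ± 0.11, adjusted P = 0.111). ENSA, whose phosphorylated form holds PP2A in check during M phase, was at 10.9 and 12.4 against 6.94 and 6.95 FPKM (-0.67 ± 0.12). For these 3 genes the heated samples nearly coincided and lay at 0.483 to 0.594 of the control mean. Over the group 2.94% were called higher and 11.8% lower, beside 12.7% and 10.1% of all tested genes. PLK3 was at 6.17 and 5.53 against 3.21 and 2.70 FPKM (-0.80 ± 0.12) and, like AURKA and PLK1, shares its listed locus with another gene.

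In the anaphase-promoting complex and spindle checkpoint 4 of 32 were called lower and 2 higher in both fits, with 1 lower when control replicate 2 or heat stress replicate 2 was left out. TRIP13, an ATPase that disassembles the checkpoint complex, was at 5.40 and 5.85 FPKM in control and 3.03 and 3.55 FPKM after heat (-0.63 ± 0.12, adjusted P = 0.118). FBXO43 (EMI2), the inhibitor of the anaphase-promoting complex that holds the egg in metaphase II, was at 20.9 and 18.5 against 30.6 and 35.3 FPKM (0.71 ± 0.15, adjusted P = 0.12). Both were called in each fit and leave-out. CDC20, the activator of that complex, was at 7.74 and 8.34 against 5.24 and 6.06 FPKM. Its call (-0.45 ± 0.17) was lost in the trend-removed fit and whichever of the 4 samples was left out (-0.53 to -0.36). Of 16 cohesin and chromosome structure genes 3 were called higher and none lower, none and 1 in the trend-removed fit, with 5 higher without control replicate 1 and none without heat stress replicate 2. They were ESCO2 (0.50), SMC2 (0.41) and SGO2 (0.47), and none of these was called once the trend was removed (0.18, 0.06 and 0.10).

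Among 37 kinesins, tubulins and spindle microtubule genes 6 were called higher (16.2%) and 5 lower (13.5%), and 1 and 4 in the trend-removed fit. These became 3 and 1 without control replicate 2 and 3 and 3 without heat stress replicate 2. DYNLL1, a light chain of dynein, was at 218 and 281 FPKM in control and 168 and 139 FPKM after heat (-0.69 ± 0.17, adjusted P = 0.131). DYNC1LI2, a light intermediate chain, was at 1.36 and 1.48 against 2.63 and 2.32 FPKM (0.52 ± 0.12). The dynein subunits thus went opposite ways. In the actin cytoskeleton 3 of 28 were called in each direction in both fits, but none was higher without control replicate 2 or heat stress replicate 2, and 1 without heat stress replicate 1. ACTB, beta-actin, was at 2.56 and 2.81 against 1.1 and 0.983 FPKM (-0.85 ± 0.12, adjusted P = 0.111). CFL1 (cofilin), which severs actin filaments, was at 18.9 and 22.1 against 12.8 and 8.47 FPKM (-0.91 ± 0.21).

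**Figure D5:**
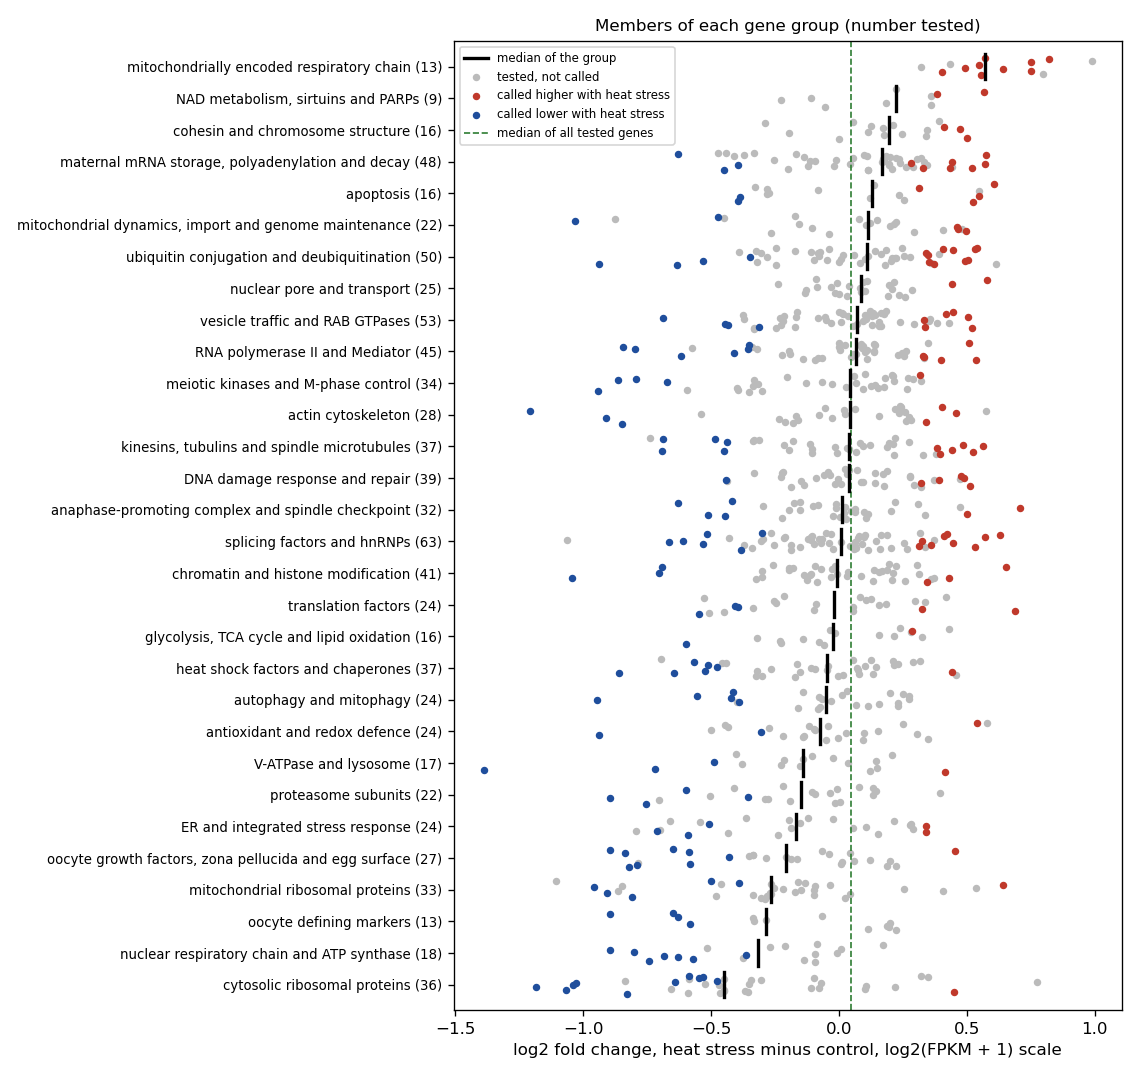
log2 fold change (heat stress minus control, log2(FPKM + 1) scale) of each tested member of 30 gene groups, with members called higher in red, called lower in blue and not called in grey, a black bar at the group's median and a dashed line at the median of all tested genes (0.05). The groups run from cytosolic ribosomal proteins (median -0.45) to mitochondrially encoded genes (0.57), the latter at -0.15 under quantile normalization, and most groups hold members on both sides.

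Genes of DNA repair and cell death were called in both directions. Of 39 DNA damage response genes 5 were called higher (12.8%, beside 12.7% of all tested genes) and 1 lower, and after trend removal none higher and 2 lower. Higher and lower calls numbered 1 and 1 without control replicate 2, 6 and 0 without heat stress replicate 1, and 2 and 4 without heat stress replicate 2. RAD1, of the checkpoint clamp, was at 5.27 and 4.86 FPKM in control and 7.60 and 7.29 FPKM after heat (0.48 ± 0.11), not called after trend removal (0.23). LIG3, the DNA ligase shared by nucleus and mitochondria, was at 3.61 and 3.67 against 2.26 and 2.58 FPKM (-0.44 ± 0.12) and was called lower in both fits, but not without heat stress replicate 1 (-0.38). Of 16 apoptosis genes 4 were called higher and 2 lower, none and 1 after trend removal, 3 and 1 without control replicate 1, 2 and 3 without control replicate 2, 2 and 1 without heat stress replicate 1, and 2 and 2 without heat stress replicate 2. BCL2L1 (BCL-X), a survival factor, was at 33.8 and 34.0 against 26.2 and 25 FPKM (-0.39 ± 0.10, adjusted P = 0.137). API5, an inhibitor of apoptosis, was at 4.14 and 3.40 against 5.64 and 6.05 FPKM (0.52 ± 0.13). XIAP (0.60) and BIRC3 (0.55), inhibitors of apoptosis, were called higher as well. XIAP lost its call without control replicate 2 (0.37), heat stress replicate 1 (0.68) or heat stress replicate 2 (0.52). BIRC3 lost it without control replicate 2 (0.32) or heat stress replicate 2 (0.47). Among these anti-apoptotic genes API5, XIAP and BIRC3 thus lay higher and BCL2L1 lower. None of BCL2L1 (-0.21), API5 (0.27), XIAP (0.20) and BIRC3 (0.20) was called once the trend was removed.

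Of 24 antioxidant genes 2 were called lower and 1 higher (3 and 1 in the trend-removed fit), with 1 lower without control replicate 2 or heat stress replicate 1. GPX3, the secreted glutathione peroxidase, was at 10.2 and 14.2 FPKM in control and 5.79 and 5.85 FPKM in heat-stressed oocytes (-0.94 ± 0.17, adjusted P = 0.112). TXNL1, a thioredoxin-like protein of the proteasome, was at 2.40 and 2.60 against 3.82 and 4.37 FPKM (0.54 ± 0.12). Both were called in each fit and with any 1 of the 4 samples left out. Of 9 genes of NAD metabolism, sirtuins and PARPs 2 were called higher and none lower, and 1 in the trend-removed fit, with 4 higher without control replicate 1, 1 without control replicate 2, and 1 in each direction without heat stress replicate 2. SLC25A51, the carrier that brings NAD into mitochondria, was at 14.7 and 12.7 against 21.3 and 20.1 FPKM (0.57 ± 0.14), and the deacetylase SIRT1 was at 1.92 and 1.86 against 2.69 and 2.84 FPKM (0.38 ± 0.12). Neither was called once the trend was removed (0.26 and 0.15), and SIRT1 was not called without control replicate 2 (0.37) or heat stress replicate 2 (0.35).

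Of 24 autophagy and mitophagy genes 5 were called lower and none higher, and 1 lower once the trend was removed. Those lower numbered 3 without control replicate 1 and 2 without control replicate 2 or heat stress replicate 1. PHB2, a prohibitin of the inner mitochondrial membrane, was at 5.80 and 6.15 FPKM in control and 4.26 and 4.16 FPKM after heat (-0.42 ± 0.11, -0.13 without the trend). MAP1LC3A, an LC3 protein of autophagosomes, was at 2.46 and 5.67 against 1.11 and 1.95 FPKM (-0.94 ± 0.34). Its control samples lay far apart, and it was not called without control replicate 2 (-0.47) or heat stress replicate 1 (-0.70). Nor was it called once the trend was removed (-0.63). Glycolysis, TCA cycle and lipid oxidation genes had 1 called in each direction of 16, 1 higher and none lower in the trend-removed fit, none higher and 1 lower without control replicate 1 or heat stress replicate 1, and none without control replicate 2.

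Of 63 splicing factors and hnRNPs 9 were called higher (14.3%) and 6 lower (9.52%), and 3 and 6 in the trend-removed fit. Without 1 library these were 5 and 7 (control replicate 1), 4 and 3 (control replicate 2) and 7 and 1 (heat stress replicate 1). SRSF3, an SR protein, was at 7.85 and 7.74 FPKM in control and 12.2 and 13 FPKM in heat-stressed oocytes (0.63 ± 0.10, adjusted P = 0.111). SRPK1, a kinase of SR proteins, was at 6.84 and 6.94 against 10.7 FPKM in both heated samples (0.57 ± 0.10). RBM22, a protein of the spliceosome's catalytic core, was at 6.94 and 7.87 against 3.95 and 4.68 FPKM (-0.66 ± 0.14). All 3 were called in both fits and in every leave-out of the 4 samples.

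Chromatin genes were balanced, with 3 of 41 called in each direction (7.32%), and 4 higher and 3 lower in the trend-removed fit. SMARCA5, an ISWI remodelling ATPase, was at 6.23 and 5.96 FPKM in control and 9.82 and 10.5 FPKM after heat (0.65 ± 0.11, adjusted P = 0.111). SETDB1, a histone H3 lysine 9 methyltransferase, was at 2.90 and 3.04 against 1.75 and 1.19 FPKM (-0.69 ± 0.17). Of 45 RNA polymerase II and Mediator genes 5 were higher and 6 lower (3 and 3 in the trend-removed fit). Leaving out 1 library gave 4 and 1 (control replicate 1), 1 and 3 (control replicate 2), 2 and 5 (heat stress replicate 1) and 3 and 4 (heat stress replicate 2). Among those lower was the polymerase subunit POLR2J at 7.25 and 7.03 against 3.49 and 3.87 FPKM (-0.80 ± 0.15). Of 25 nuclear pore and transport genes 2 were higher and none lower in both fits (1 higher without control replicate 1), among them the import receptor TNPO1 at 3.31 and 2.75 against 4.93 and 5.09 FPKM (0.58 ± 0.12). Of 53 vesicle traffic genes and RAB GTPases 6 were higher (11.3%) and 4 lower (7.55%), and 1 and 4 in the trend-removed fit. These were 3 and 4 without control replicate 1, 3 and 3 without control replicate 2, none and 3 without heat stress replicate 1, and 5 and 2 without heat stress replicate 2. Among those lower was RAB5C, of early endosomes, at 3.40 and 4.20 against 2.13 and 1.82 FPKM (-0.69 ± 0.14). WEE2, CNOT6, CNOT11, SMC2, CFL1, RAD1, BCL2L1, XIAP, SIRT1, SRSF3, SETDB1, POLR2J, TNPO1, ZP2, HSP90AB1, SERPINH1, POP7 and SNX22, named above, each share their listed locus with 1 to 3 other genes.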

How the data were processed

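RNA sequencing libraries of 6 oocyte samples were analysed, 2 each of control, heat stress and heat stress with NMN, grouped by the treatment in the labels. According to the study's methods reads were trimmed with cutadapt and aligned with TopHat2, and the submitters' processing notes name Cufflinks 2.2.1, Cuffnorm and Cuffdiff. The FPKM values were deposited by the authors as 1 table of all samples. FPKM keep no read numbers, so library depth is unknown and no counting interval could be given. Columns with the authors' own comparisons (fold change, p and q values) were not used.

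Genes averaging 1 FPKM or more over the samples were fitted as log2(FPKM + 1) with limma 3.58.1 in R 4.3.3 (trended prior, all 3 groups sharing 1 estimate of spread), and P-values were adjusted by Benjamini-Hochberg over all tested genes. The test was also run on simulated data with independent noise and known shifts. Those data had no slope on GC content or length, so they cannot show that the calls are right. A gene was called at an unadjusted P under 0.05 with no overlap between the groups. Tables and figures used Python 3.11.15, pandas 2.3.3, scipy 1.17.1 and matplotlib 3.10.9. GC content, lengths and promoters were read from RefSeq Sscrofa11.1. Genes share a listed locus where the table gives them the same coordinates, and the coordinates printed are those of the table.

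Named genes, without LOC symbols, were the 15 called genes with the largest differences and the 10 called genes with the highest mean FPKM in each direction, the 4 called genes of smallest P in each gene group, and the 13 mitochondrial genes. HSPA6, RBM3, NR0B1, KLF2, KLF4 and uncalled genes set beside these (such as HSPD1, BMP15 and the chaperones with promoters shown) were chosen after their values were seen. All members and gene groups were chosen with earlier results of these data known. Alternatives covered the pseudocount, the filter, scaling, the prior, each left-out library, the replicate block and, chosen after seeing the data, removal of the length and GC trend by loess and a nuclear sum without LOC100513953.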

Additional observations from a re-analysis of the deposited data

How the results depend on the processing

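Depth is unknown, and 2 samples a group leave each call resting on few values. The 1074 calls became 1865 with a minimum mean of 0.1 FPKM (1047 lower), 468 with a minimum of 5 (287 higher, 181 lower), 501 with scaling to the nuclear sum (21 higher), 697 with the length and GC trend removed (318 higher), 74 with an absolute log2 fold change over 1 (18 higher, 56 lower) and 2579 by lack of overlap alone (1487 higher, 1092 lower). With the nuclear sum taken without LOC100513953, 333 were higher. Lack of overlap alone was counted over the 4713 tested genes. At 1 gene it gives a two-sided exact permutation P of 0.33, with 2 against 2 samples. Genes with an adjusted P under 0.05, 0 in the reported fit, numbered 84 with scaling to the nuclear sum, 1 without LOC100513953 in that sum, 1 with no trend in the prior, and 0 to 1 when 1 library was left out (1 without heat stress replicate 2). Leaving out 1 library gave 648 (without control replicate 2) to 1015 calls, 326 to 591 of them higher. Chaperones called lower numbered 14 with the minimum of 0.1. Mitochondrially encoded genes called higher numbered 0 with quantile normalization, 0 with scaling to the nuclear sum, 10 with LOC100513953 kept out of that sum and 5 in a fit of only the 4 compared samples. Nuclear respiratory subunits called lower numbered 15 with the minimum of 0.1, 1 with the minimum of 5, 4 with the trend removed and 4 to 7 when 1 library was left out, and cytosolic ribosomal proteins 18, 2 and, when 1 library was left out, 6 to 13. The log2 fold change reversed for ASF1A with scaling to the nuclear sum (-0.0031), and with quantile normalization for ATP6 (-0.16), COX1 (-0.25), COX2 (-0.15), CYTB (-0.28), ND2 (-0.42), ND4 (-0.10) and ND6 (-0.14). A larger or smaller filter changes how many genes are tested, and for the other settings the cause was not tested. Of the 151 named genes, 95 kept their call and direction with the trend removed, 151 with a pseudocount of 0.1, and 108 without control replicate 2. With the replicate number as a block 922 genes were called (479 higher, 443 lower) and 141 of the 151 named genes kept their call. Deviations of same-numbered samples correlated at -0.032 across genes, and nothing in the labels says that a number marks a shared collection.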
